A study of Mus musculus with 10 samples.

Results

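Dppa2, Dppa3, Dppa4, Dppa5a, Nanos3, Kit, Ifitm1, Ifitm3, Dnd1 and Tfap2c, 10 genes expressed in or needed by primordial germ cells, were followed through 6 groups of mouse embryonic stem cells. They were picked by name, with earlier results of these data known. Every array probe carrying 1 of the 10 gene names was taken, which gave 13 of the 55681 probes on the array. Dppa4 had 3 probes, Dppa2 had 2 and each of the other 8 genes had 1. Tfap2c stands in the scanner files under its older name Tcfap2c and was found through its RefSeq accession. All 13 probes were well above background on all 10 arrays and none was saturated, so all 10 genes were among the 23811 genes tested.

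The arrays labelled PRDM14 came from line JP-23, wild-type cells that stably express Prdm14, and those labelled PRDM14_DNMT3B from line JP-23+3b-3, which expresses Dnmt3b1 as well. Dnmt3b_KO was the Dnmt3b-/- line 8bb, Dnmt1_KO the Dnmt1-/- line 36, and TKO the line 19-1, which lacks Dnmt1, Dnmt3a and Dnmt3b. J1, a wild-type line, was the control. The titles of the PRDM14 and PRDM14_DNMT3B arrays begin with J1, so J1 was taken as the parental line of both. PRDM14, PRDM14_DNMT3B, Dnmt3b_KO and J1 had 2 arrays each, and Dnmt1_KO and TKO had 1 array each. Every group was a single line grown feeder-free with serum and leukaemia inhibitory factor (LIF), so a property of the line and a property of its genotype cannot be told apart. Nothing states that the 2 arrays of a line came from separate cultures. The p-values therefore cover the spread between arrays, and it may be technical. The sources used here do not give the promoter that drives the transgenes or the parent lines of the knockouts.

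Primordial germ cells are the embryonic founders of eggs and sperm. They are set aside from the epiblast by bone morphogenetic protein signals, and the transcription factors Blimp1 (gene Prdm1), PRDM14 and AP2-gamma (gene Tfap2c) install their programme while DNA methylation is erased genome-wide. Several genes of that programme, the Dppa genes foremost, are also active in embryonic stem cells. DNMT1 copies methylation marks at CpG dinucleotides to new DNA strands, and DNMT3A and DNMT3B set new ones.

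The promoters show how much CpG sequence, the substrate of these enzymes, lies before the start of the members for which RefSeq sequence on GRCm38.p6 was at hand, namely Kit, Ifitm1, Ifitm3 and Nanos3 (4 of 10). Entries for Dppa2, Dppa3, Dppa4, Dppa5a, Dnd1 and Tfap2c were not used here. The 250 bases before each transcription start are given 5′ to 3′ on the strand of the gene, with CpG dinucleotides in capitals. They are Kit at chr5:75574737-75574986 (plus strand, the first of its starts in the table), Ifitm1 at chr7:140967826-140968075 (plus strand), Ifitm3 at chr7:141010745-141010994 (minus strand) and Nanos3 at chr8:84176553-84176802 (minus strand).
Kit: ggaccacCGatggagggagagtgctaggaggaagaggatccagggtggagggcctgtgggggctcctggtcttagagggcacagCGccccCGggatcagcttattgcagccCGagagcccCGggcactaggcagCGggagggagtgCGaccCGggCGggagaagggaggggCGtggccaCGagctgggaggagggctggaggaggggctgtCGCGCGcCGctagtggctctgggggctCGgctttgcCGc
Ifitm1: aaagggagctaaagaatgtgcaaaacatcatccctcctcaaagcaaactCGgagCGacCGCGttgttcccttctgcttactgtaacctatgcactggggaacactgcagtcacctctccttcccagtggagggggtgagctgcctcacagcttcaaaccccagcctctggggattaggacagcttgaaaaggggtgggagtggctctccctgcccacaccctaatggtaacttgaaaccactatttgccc
Ifitm3: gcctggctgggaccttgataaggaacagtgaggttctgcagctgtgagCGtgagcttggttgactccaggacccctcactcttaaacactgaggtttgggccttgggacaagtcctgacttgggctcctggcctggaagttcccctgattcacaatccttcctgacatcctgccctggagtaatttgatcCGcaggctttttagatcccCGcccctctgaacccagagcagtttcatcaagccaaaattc
Nanos3: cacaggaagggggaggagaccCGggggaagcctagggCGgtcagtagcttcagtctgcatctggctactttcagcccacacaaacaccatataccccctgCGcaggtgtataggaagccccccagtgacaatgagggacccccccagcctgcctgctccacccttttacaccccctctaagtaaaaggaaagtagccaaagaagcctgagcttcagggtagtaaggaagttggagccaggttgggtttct
The Kit window held 17 CpG dinucleotides, Ifitm1 held 4, and Ifitm3 and Nanos3 held 3 each, against a median of 6 over the 32841 RefSeq promoter windows of the same length. Letters of the interferon-stimulated element (GAAANNGAA, in 7.13% of all windows), of a STAT site (TTCNNNGAA, 7.02%), of an E-box (CACGTG, 6.02%) and of an octamer (ATGCAAAT, 1.60%) were searched on both strands, and none occurred in these windows. The last 3 windows hold fewer CpGs than the median window and Kit holds more. No methylation was measured on these arrays.

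Levels below are log2 signals with the 75th percentile of the array subtracted, so 0 is that percentile and a difference of 1 is a doubling of signal. A level follows 1 probe across arrays and is not set against the level of another gene. The SD between the 2 arrays of a line was at most 0.21 for the probe that stands for a member (Dppa5a in J1). Between 50.03% and 56.03% of the spots of an array were well above background, and the 75th percentile was 243.1 to 337.3 intensity units. All 7 embryonic stem cell markers were above background on every array. Their summed level (in units of the 75th percentile) was 547 to 556 in PRDM14, 495 to 503 in PRDM14_DNMT3B, 397 to 404 in Dnmt3b_KO, 258 in Dnmt1_KO and 379 in TKO, against 367 to 385 in J1. Probes of the deleted genes were low where the labels say so: Dnmt3b was at 1.62 and 1.69 in Dnmt3b_KO and 1.99 in TKO, against 7.60 and 7.57 in J1, and Dnmt1 at -2.68 in Dnmt1_KO and -3.15 in TKO, against 1.62 and 1.298 in J1. The Dnmt3a probe was not well above background in TKO (at least 15.8-fold lower than J1). The Prdm14 probe went against the overexpression label, with -4.32 and -4.02 on the arrays labelled PRDM14, against -0.08 and 0.09 in J1, and it was not well above background in PRDM14_DNMT3B (at least 17.0-fold lower than J1). The Dnmt3b probe likewise read 4.09 and 4.17 in PRDM14_DNMT3B. The sources used here do not say whether either probe can detect its transgene. Overexpression was therefore not seen in these data, and PRDM14 and PRDM14_DNMT3B below are the names of lines as labelled.

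**Figure D1:**
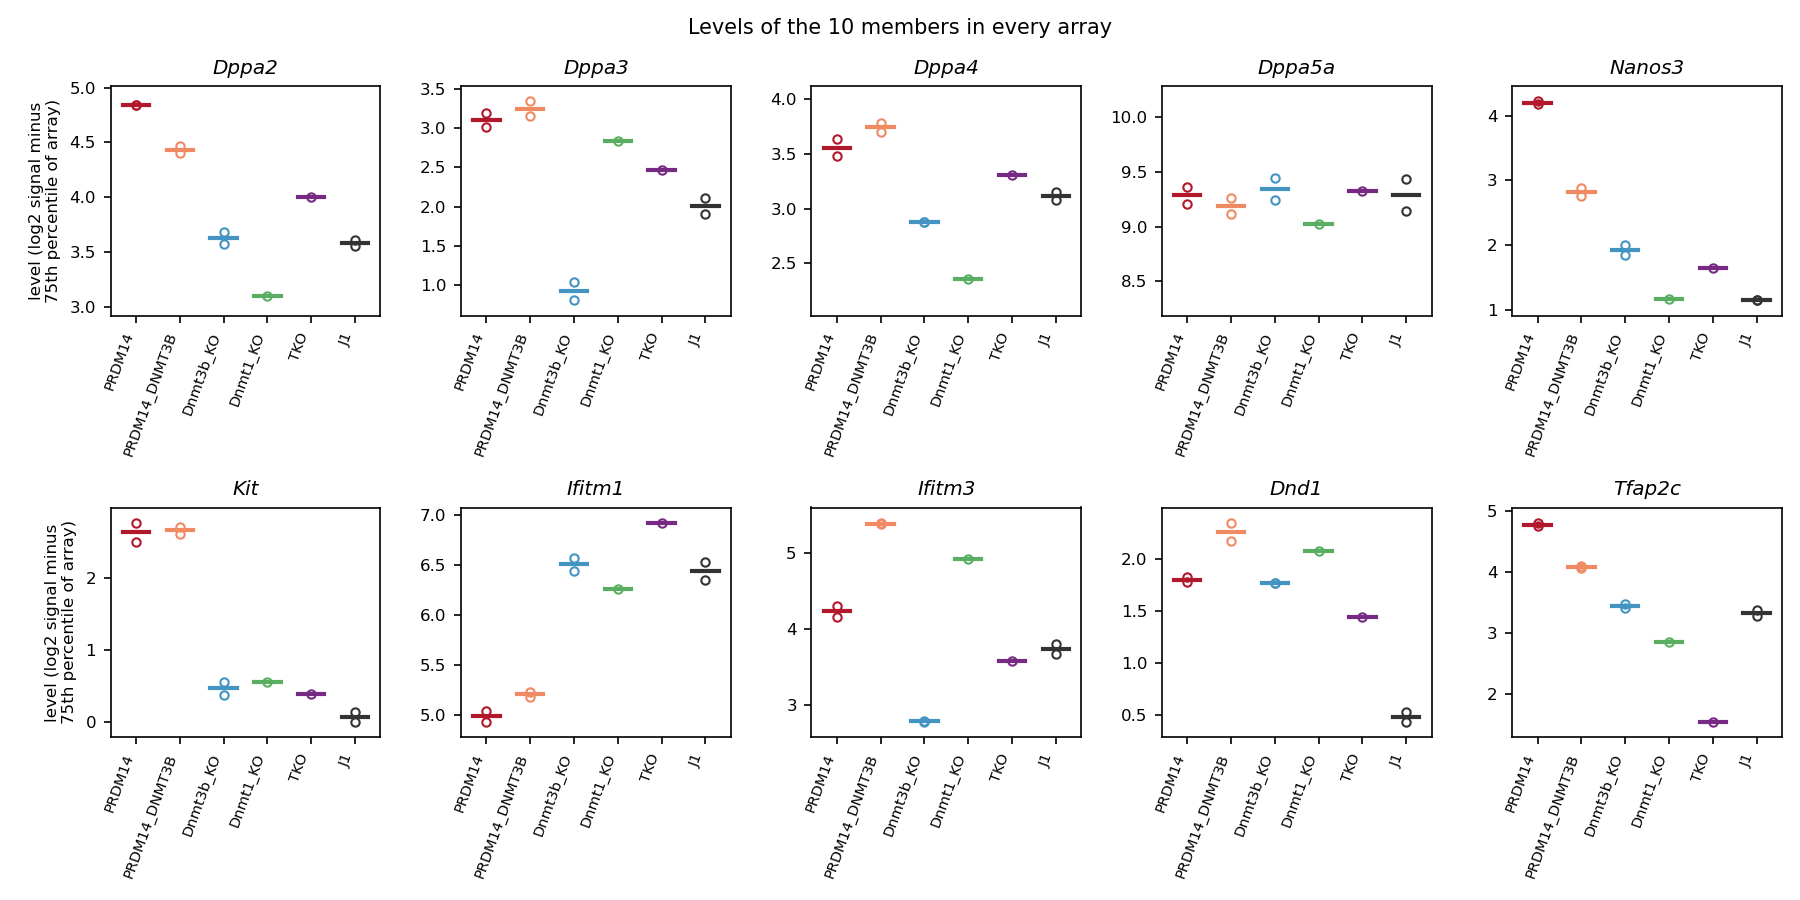
Levels of the 10 members, 1 panel per gene, with each array as a circle and the mean of a line as a bar. The y axis is the level (log2 signal relative to the array's 75th percentile), with its own range in each panel, and the x axis gives the 6 lines. Kit separates PRDM14 and PRDM14_DNMT3B (2.51 to 2.77) from the other 4 lines (0.01 to 0.56), and Dppa5a varies by 0.42 over all arrays.

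PRDM14 against J1 set the arrays labelled PRDM14 beside those of wild-type cells. Of the 10 members, 8 were higher in PRDM14, 1 was lower (Ifitm1) and 1 did not pass (Dppa5a). Over all genes tested, 39.6% passed in either direction, 21.0% higher and 18.7% lower, at a limma adjusted p under 0.05. The median difference over the members was 1.17 log2 units, beside -0.027 over all genes. Since the members were chosen with earlier results known, these counts and medians, and those below, do not test the set. Nanos3 and Kit differed most, by 3.04 and 2.56. Each PRDM14 array lay on a slide with no other line, and in every comparison with PRDM14 the slide and the line cannot be told apart.

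The PRDM14_DNMT3B line gave the same counts against J1: 8 members higher, 1 lower (Ifitm1) and 1 not passing (Dppa5a). Of all genes, 39.1% passed, 19.5% higher and 19.6% lower, and the medians were 1.04 over the members and -0.064 over all genes. Here 2 slides each held an array of both lines, and the differences within slides 1 and 2 had the same sign for each of the 10 members. They were 2.61 and 2.57 for Kit, 1.72 and 1.61 for Nanos3, and -1.30 and -1.17 for Ifitm1. On slide 2 the J1 array was scanned in another pass. Both comparisons use the same 2 J1 arrays, so their counts are not independent.

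Fewer members passed in the lines lacking methyltransferases. In Dnmt3b_KO against J1, Dnd1 and Nanos3 were higher and Dppa3 and Ifitm3 lower, while 6 members did not pass, beside 21.0% of all genes passing (10.8% higher, 10.2% lower). The medians were 0.062 over the members and -0.097 over all genes. In Dnmt1_KO against J1, Dnd1, Ifitm3 and Dppa3 were higher and Dppa4, Dppa2 and Tfap2c lower, while 4 did not pass, beside 28.2% of all genes (13.1% higher, 15.0% lower). The medians there were -0.079 and -0.14. In TKO against J1, Dnd1, Nanos3, Ifitm1 and Dppa2 were higher and Tfap2c lower, while 5 did not pass, beside 28.5% of all genes (13.9% higher, 14.7% lower). The medians were 0.37 and -0.071. Dnmt1_KO and TKO rest on 1 array each, whose spread was assumed to equal that of the replicated lines. Across the alternatives tried, the number of members called higher in TKO ran from 1 to 6.

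**Figure D2:**
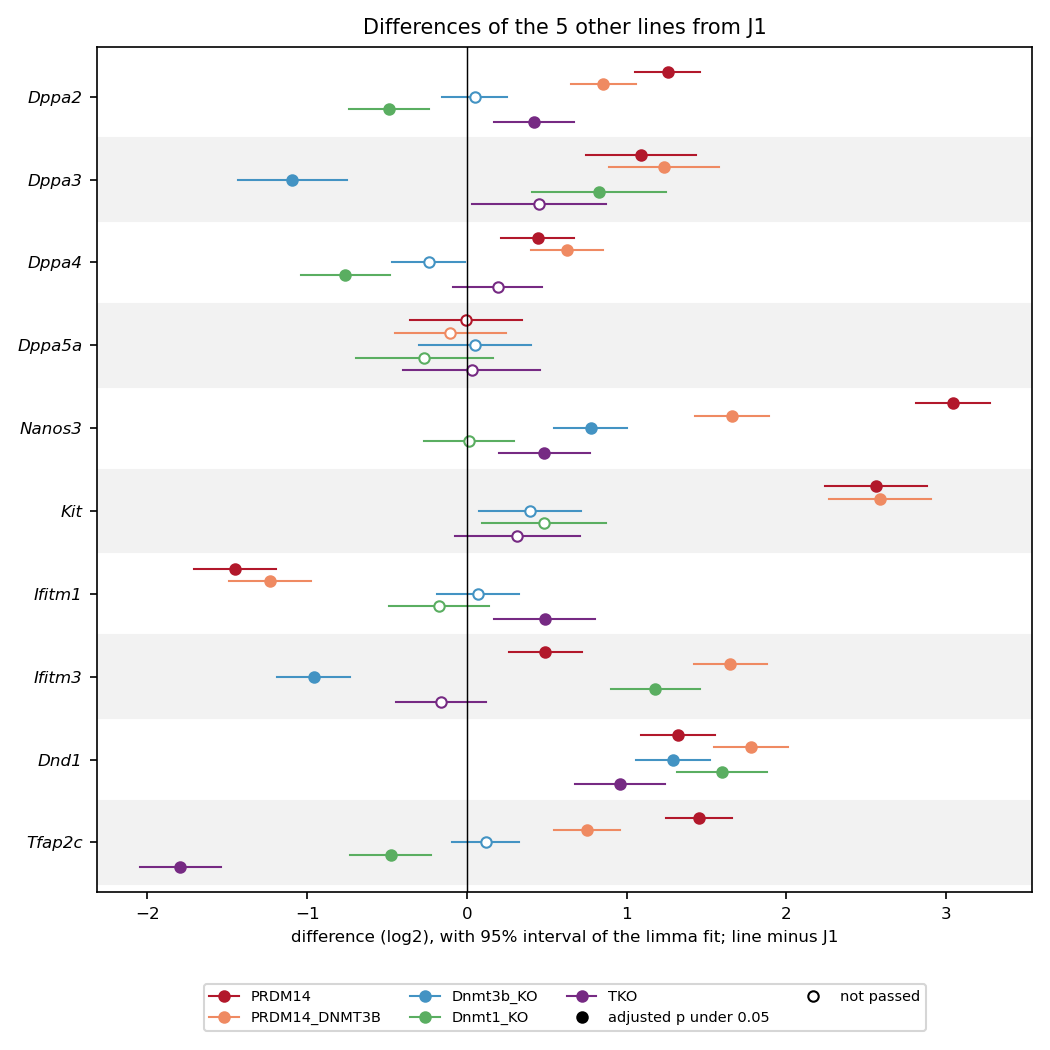
Differences of the 5 other lines from J1 for each member, in log2 units on the x axis, with the 95% interval of the limma fit. Filled points passed a limma adjusted p under 0.05 and open points did not. Dnd1 is the member whose 5 points are all filled and above 0, from 0.96 in TKO to 1.78 in PRDM14_DNMT3B.

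Nanos3 encodes an RNA-binding protein that keeps migrating primordial germ cells alive. Its level was 4.22 and 4.17 in PRDM14, 2.87 and 2.75 in PRDM14_DNMT3B, 2.00 and 1.85 in Dnmt3b_KO, 1.17 in Dnmt1_KO and 1.64 in TKO, against 1.16 and 1.15 in J1. The arrays of PRDM14 lay above all others, and those of PRDM14_DNMT3B above the remaining lines. Against J1 the difference in PRDM14 was 3.04 ± 0.09 (SE), an 8.24-fold higher signal (limma adjusted p = 2.77e-05). Nanos3 was also higher than J1 in PRDM14_DNMT3B (1.66 ± 0.09, limma adjusted p = 0.000125), in Dnmt3b_KO (0.77 ± 0.09, limma adjusted p = 0.00451) and in TKO (0.49 ± 0.11, limma adjusted p = 0.0271). The TKO call was lost without either J1 array, without either PRDM14 array and without the filter on dim probes. For Dnmt1_KO the difference was 0.015, with a 95% interval of -0.27 to 0.30.

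Nanos3 lies on chromosome 8 (probe at chr8:86697632-86697691, minus strand, mm9), whose genes stood apart as a whole in some lines. The median difference of 1292 genes of chromosome 8 was above that of the other autosomes by 0.44 in PRDM14, 0.36 in PRDM14_DNMT3B and 0.23 in TKO against J1, and by 0.020 in Dnmt3b_KO and -0.017 in Dnmt1_KO. The Nanos3 difference was 3.04 in PRDM14 and 1.66 in PRDM14_DNMT3B, larger than these shifts, while in TKO it was 0.49 beside a shift of 0.23. The part of the chromosome in these differences was not tested. The other chromosomes that carry a member lay between -0.090 and 0.046 of the other autosomes in the 7 comparisons.

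Dnd1 encodes a germ cell RNA-binding protein that works with NANOS proteins. Its level was 1.78 and 1.83 in PRDM14, 2.35 and 2.18 in PRDM14_DNMT3B, 1.77 and 1.77 in Dnmt3b_KO, 2.08 in Dnmt1_KO and 1.44 in TKO, against 0.53 and 0.44 in J1. J1 was the low line, and no array of another line overlapped it. The differences from J1 were 1.32 in PRDM14, 1.78 in PRDM14_DNMT3B, 1.29 in Dnmt3b_KO, 1.60 in Dnmt1_KO and 0.96 in TKO, and each passed (limma adjusted p from 0.000102 to 0.00306). These 5 comparisons share the same 2 J1 arrays. PRDM14_DNMT3B exceeded Dnmt3b_KO by 0.49 (limma adjusted p = 0.0114) and TKO by 0.82 (limma adjusted p = 0.00411), while PRDM14 and Dnmt3b_KO differed by 0.030, with a 95% interval of -0.20 to 0.26.

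Tfap2c encodes AP2-gamma, a transcription factor of primordial germ cells that is also made by trophoblast. Its probe (chr2:172383860-172383919, plus strand, mm9) read 4.76 and 4.81 in PRDM14, 4.10 and 4.07 in PRDM14_DNMT3B, 3.48 and 3.41 in Dnmt3b_KO, 2.85 in Dnmt1_KO and 1.53 in TKO, against 3.38 and 3.27 in J1. The lines formed a descending series in which all neighbours differed except Dnmt3b_KO and J1. PRDM14 was 1.46 ± 0.08 above J1 (limma adjusted p = 0.000129), and PRDM14_DNMT3B was 0.75 ± 0.08 above it (limma adjusted p = 0.00121). The difference of TKO from J1 was -1.79 ± 0.10, a 3.47-fold lower signal (limma adjusted p = 0.000422). Dnmt1_KO was lower than J1 as well, by a difference of -0.48 ± 0.10 (limma adjusted p = 0.0217), a call lost under quantile normalization (-0.30), in the authors' value table, without the filter on dim probes and without J1 replicate 1. Dnmt1_KO minus TKO was 1.32 (limma adjusted p = 0.0041), with 1 array on each side. The summed level of the 7 trophoblast markers other than Tfap2c was 5.36 to 6.30 in PRDM14, 8.42 to 8.67 in PRDM14_DNMT3B, 78.6 to 83.8 in Dnmt3b_KO, 82.6 in Dnmt1_KO and 19.9 in TKO, against 50.9 to 51.6 in J1. Of these markers, Elf5 was above background on no array, and Hand1 was not above it in TKO. The part of trophoblast cells in the Tfap2c level was not tested. In bulk cultures, fewer cells of a type and less RNA per cell cannot be told apart.

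Kit encodes the receptor of stem cell factor, which guides the migration and survival of primordial germ cells. The level of its probe (chr5:76052394-76052453, plus strand, mm9) was 2.51 and 2.77 in PRDM14, 2.62 and 2.72 in PRDM14_DNMT3B, 0.38 and 0.56 in Dnmt3b_KO, 0.56 in Dnmt1_KO and 0.40 in TKO, against 0.01 and 0.15 in J1. Both PRDM14-labelled lines were high, and the arrays of the other 4 lines read at most 0.56. Against J1, Kit was higher by 2.56 ± 0.13 in PRDM14 (5.90-fold, limma adjusted p = 8.76e-05) and by 2.59 ± 0.13 in PRDM14_DNMT3B (6.02-fold, limma adjusted p = 9.05e-05). The differences in the knockouts were 0.39 in Dnmt3b_KO, 0.48 in Dnmt1_KO and 0.32 in TKO, and none passed (limma adjusted p = 0.0858, 0.0713 and 0.195). With the slide as a block, all 3 passed. Kitl, which encodes the ligand of Kit, had a difference of 1.23 in PRDM14 and 1.75 in PRDM14_DNMT3B against J1, and neither passed (limma adjusted p = 0.189 and 0.0823). Its SE was 0.64 in both, and the PRDM14_DNMT3B arrays disagreed, at 0.85 and -1.27. The PRDM14 arrays read -0.75 and -0.71, and those of J1 -1.84 and -2.08.

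Dppa2 and Dppa4 encode paired SAP-domain chromatin proteins of pluripotent and germ cells, and the genes are neighbours on chromosome 16. The used Dppa2 probe (chr16:48319381-48319440, plus strand, mm9) read 4.84 and 4.84 in PRDM14, 4.40 and 4.47 in PRDM14_DNMT3B, 3.57 and 3.68 in Dnmt3b_KO, 3.09 in Dnmt1_KO and 4.003 in TKO, against 3.61 and 3.56 in J1. The used Dppa4 probe (chr16:48293216-48293867, plus strand, mm9, a span longer than the 60-base probe) read 3.64 and 3.48 in PRDM14, 3.70 and 3.79 in PRDM14_DNMT3B, 2.87 and 2.88 in Dnmt3b_KO, 2.35 in Dnmt1_KO and 3.31 in TKO, against 3.08 and 3.15 in J1. In both genes the PRDM14-labelled lines were highest and Dnmt1_KO lowest. Against J1, Dppa2 was higher by 1.26 ± 0.08 in PRDM14 (limma adjusted p = 0.000193) and by 0.85 ± 0.08 in PRDM14_DNMT3B (limma adjusted p = 0.000728). Dppa4 was higher by 0.44 ± 0.09 in PRDM14 (limma adjusted p = 0.0124) and by 0.63 ± 0.09 in PRDM14_DNMT3B (limma adjusted p = 0.00336). The Dppa4 call in PRDM14 was lost with the mean of all its probes (0.26) and without PRDM14 replicate 1 (0.36) or J1 replicate 1 (0.41).

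In Dnmt1_KO both genes were below J1, Dppa2 by a difference of -0.49 ± 0.10 (limma adjusted p = 0.0196) and Dppa4 by -0.76 ± 0.11 (limma adjusted p = 0.00689). The Dppa2 call in Dnmt1_KO was lost under quantile normalization (-0.28), with normexp background correction (-0.35) and without either J1 array, among others. In TKO, Dppa2 was 0.42 ± 0.10 above J1 (limma adjusted p = 0.0287), a call that failed whichever of the 8 replicates was left out, without the filter on dim probes, and with the mean of both probes (0.15). The other Dppa2 probe had a difference of -0.12 there. Dppa4 differed in TKO by 0.19 with a 95% interval of -0.085 to 0.47. In Dnmt3b_KO neither gene passed, with a difference of 0.049 for Dppa2 (95% interval -0.16 to 0.25) and of -0.24 for Dppa4 (95% interval -0.47 to -0.012). The Dppa4 difference passed with the slide as a random block. The summed embryonic stem cell markers were highest in PRDM14 (547 to 556) and lowest in Dnmt1_KO (258). That sum was 495 to 503 in PRDM14_DNMT3B, 397 to 404 in Dnmt3b_KO and 379 in TKO, against 367 to 385 in J1. It adds the signals of different probes, so the brightest probes weigh most in it. The summed level of 8 primitive endoderm markers was 4.69 to 4.90 in PRDM14, 8.23 to 9.37 in PRDM14_DNMT3B, 13.6 to 14.2 in Dnmt3b_KO, 6.55 in Dnmt1_KO and 26.2 in TKO, against 10.21 to 10.66 in J1, with all 8 above background in TKO and 3 to 6 on every other array. That of 8 fibroblast markers was 1.31 to 1.40 in PRDM14, 1.64 to 2.10 in PRDM14_DNMT3B, 9.53 to 9.56 in Dnmt3b_KO, 7.74 in Dnmt1_KO and 7.31 in TKO, against 3.71 to 4.07 in J1, and Lum and Postn were above background on no array. The part of these markers in the differences of the members was not tested.

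**Figure D3:**
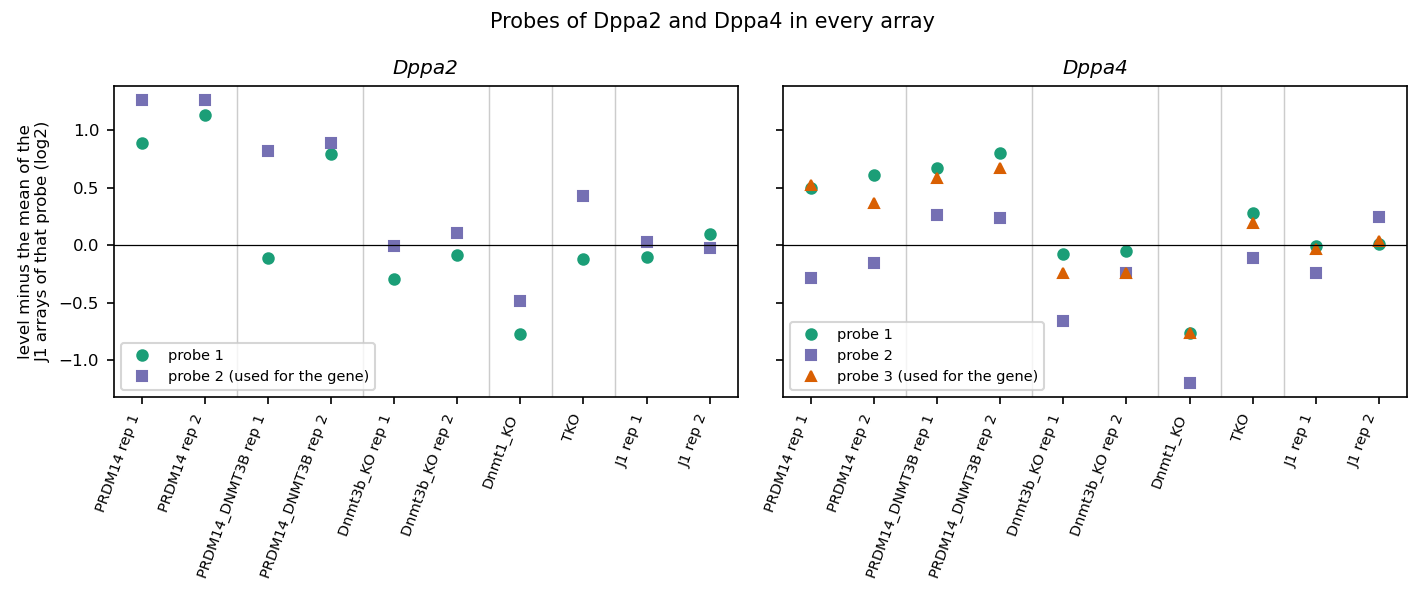
Every probe of Dppa2 (left) and Dppa4 (right) on each array, as the level minus the mean of that probe over the J1 arrays (log2, y axis), with arrays on the x axis grouped by line. Probe 2 of Dppa2 and probe 3 of Dppa4 stand for the genes. Probe 1 of Dppa2 parts from probe 2 on the first PRDM14_DNMT3B array, and probe 2 of Dppa4 lies below 0 on both PRDM14 arrays.

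The other probes of these genes gave partly different answers. The other Dppa2 probe (probe 1, chr16:48317579-48318787, a span longer than the 60-base probe) read 2.38 and 2.62 in PRDM14, 1.38 and 2.28 in PRDM14_DNMT3B, 1.20 and 1.41 in Dnmt3b_KO, 0.73 in Dnmt1_KO and 1.37 in TKO, against 1.39 and 1.59 in J1. In a limma fit of 33099 probes it passed in PRDM14 against J1 (1.01 ± 0.30, adjusted p = 0.0435) and not in PRDM14_DNMT3B against J1 (0.34 ± 0.30, adjusted p = 0.432), where its 2 replicates differed most. A Dppa4 probe at chr16:48291368-48291427 followed the used one, with 0.55 in PRDM14 and 0.73 in PRDM14_DNMT3B against J1 (limma adjusted p = 0.0058 and 0.002). The remaining, dim Dppa4 probe, at chr16:48294346-48294405, read -0.89 and -0.75 in PRDM14, -0.34 and -0.37 in PRDM14_DNMT3B, -1.26 and -0.85 in Dnmt3b_KO, -1.80 in Dnmt1_KO and -0.72 in TKO, against -0.85 and -0.36 in J1. It passed in Dnmt1_KO (-1.20 ± 0.25, limma adjusted p = 0.0221) and in no other line against J1. All 3 Dppa4 probes were thus lower in Dnmt1_KO, while the dim one was not higher in PRDM14 (-0.22 ± 0.21, limma adjusted p = 0.462).

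Dppa3 encodes Stella (also PGC7), which marks early primordial germ cells and protects the maternal genome from loss of methylation after fertilization. The level of its probe (chr6:122580207-122580266, plus strand, mm9) was 3.01 and 3.19 in PRDM14, 3.15 and 3.34 in PRDM14_DNMT3B, 0.81 and 1.03 in Dnmt3b_KO, 2.84 in Dnmt1_KO and 2.47 in TKO, against 1.91 and 2.11 in J1. Dnmt3b_KO was the low line and did not overlap any other. Dppa3 was higher than J1 by 1.09 ± 0.14 in PRDM14 (limma adjusted p = 0.00198), by 1.23 ± 0.14 in PRDM14_DNMT3B (limma adjusted p = 0.00127) and by 0.83 ± 0.17 in Dnmt1_KO (limma adjusted p = 0.0191). The Dnmt1_KO call was lost without J1 replicate 1 (0.73). In Dnmt3b_KO the difference was -1.09 ± 0.14, a 2.13-fold lower signal (limma adjusted p = 0.00528). Compared directly, Dnmt3b_KO minus TKO was -1.55 (limma adjusted p = 0.00329) and Dnmt3b_KO minus Dnmt1_KO was -1.92 (limma adjusted p = 0.0018). For TKO the difference from J1 was 0.45 ± 0.17 and did not pass (limma adjusted p = 0.102), while it passed under quantile normalization (0.56) and with the slide as a block.

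Dppa5a encodes a small KH-domain RNA-binding protein abundant in embryonic stem cells. Its probe (chr9:78214866-78214925, minus strand, mm9) read 9.21 and 9.36 in PRDM14, 9.26 and 9.11 in PRDM14_DNMT3B, 9.44 and 9.24 in Dnmt3b_KO, 9.02 in Dnmt1_KO and 9.32 in TKO, against 9.43 and 9.15 in J1. The single Dnmt1_KO array lay below all others and the TKO array above both PRDM14_DNMT3B arrays, the other lines overlapped, and no pair of the 6 lines differed in the limma fit. The 95% interval against J1 was -0.35 to 0.35 in PRDM14. Over the 10 arrays the SD of Dppa5a was 0.14, the smallest of the 10 members, and that of Kit the largest at 1.21.

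Ifitm1 and Ifitm3 encode interferon-induced transmembrane proteins, also called fragilis 2 and fragilis, that mark the cells from which primordial germ cells arise. The genes are close neighbours on chromosome 7. The probe of Ifitm1 (chr7:148155659-148155718, plus strand, mm9) read 5.04 and 4.93 in PRDM14, 5.23 and 5.17 in PRDM14_DNMT3B, 6.57 and 6.45 in Dnmt3b_KO, 6.26 in Dnmt1_KO and 6.92 in TKO, against 6.53 and 6.35 in J1. Ifitm3, measured with 10 spots of its probe (chr7:148195591-148195650, minus strand, mm9) on each array, read 4.31 and 4.16 in PRDM14, 5.40 and 5.38 in PRDM14_DNMT3B, 2.79 and 2.77 in Dnmt3b_KO, 4.92 in Dnmt1_KO and 3.58 in TKO, against 3.81 and 3.68 in J1. In both PRDM14-labelled lines Ifitm1 was lower than in J1 and Ifitm3 higher. The differences of Ifitm1 were -1.45 ± 0.10 in PRDM14 (2.74-fold lower, limma adjusted p = 0.000253) and -1.23 ± 0.10 in PRDM14_DNMT3B (2.35-fold lower, limma adjusted p = 0.000449). Those of Ifitm3 were 0.49 ± 0.09 in PRDM14 (limma adjusted p = 0.0087) and 1.65 ± 0.09 in PRDM14_DNMT3B (3.14-fold higher, limma adjusted p = 0.000125). The Ifitm3 call in PRDM14 was lost without PRDM14 replicate 1 (0.42).

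The knockouts parted Ifitm3 more than Ifitm1. Ifitm3 was lower than J1 in Dnmt3b_KO by a difference of -0.96 ± 0.09 (limma adjusted p = 0.00242) and higher in Dnmt1_KO by 1.18 ± 0.11 (limma adjusted p = 0.00182). In TKO it differed from J1 by -0.16, with a 95% interval of -0.44 to 0.12. Ifitm1 passed in TKO alone among the knockouts (0.49 ± 0.13, limma adjusted p = 0.0375), and that call was lost without any 1 of 7 of the 8 replicates and without the filter on dim probes. Dppa3 shared with Ifitm3 the low Dnmt3b_KO level and the higher levels in Dnmt1_KO, PRDM14 and PRDM14_DNMT3B. The 10 spots of the Ifitm3 probe varied within an array by an SD of 0.028 to 0.093.

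PRDM14_DNMT3B against PRDM14 compared the lines labelled as with and without added Dnmt3b1. The Dnmt3b probe went against that label, with a difference of -0.89 ± 0.08 (limma adjusted p = 0.00199). Nanos3, Tfap2c and Dppa2 were lower in PRDM14_DNMT3B, Ifitm3 and Dnd1 higher, and 5 members did not pass, beside 20.8% of all genes passing (9.79% higher, 11.0% lower). Nanos3 was 2.60-fold lower (difference -1.38 ± 0.09, limma adjusted p = 0.00097), at a level still 1.66 over J1. Tfap2c differed by -0.70 ± 0.08 (limma adjusted p = 0.00451) and Dppa2 by -0.40 ± 0.08 (limma adjusted p = 0.0229). Ifitm3 was 2.23-fold higher (1.16 ± 0.09, limma adjusted p = 0.0014), farther from J1 than in PRDM14, and Dnd1 was 0.46 ± 0.09 higher (limma adjusted p = 0.0222). The Dppa2 call was lost without any 1 of the 4 arrays compared, and the Dnd1 call without 3 of them. Both were also lost without the filter on dim probes, and that of Dppa2 with the mean of its probes (-0.53). Kit differed by 0.029 with a 95% interval of -0.29 to 0.35, Dppa3 by 0.15 with -0.20 to 0.49, Dppa4 by 0.18 with -0.043 to 0.41, and Ifitm1 by 0.22 with -0.038 to 0.48.

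PRDM14 against Dnmt3b_KO set the line labelled PRDM14 beside a line without Dnmt3b. In PRDM14 the Dnmt3b probe was itself below J1, with a difference of -2.56 ± 0.08 (limma adjusted p = 2.97e-05). Of the members 7 were higher in PRDM14, 1 lower (Ifitm1) and 2 did not pass (Dppa5a and Dnd1), beside 37.3% of all genes passing (21.7% higher, 15.7% lower). The medians were 1.27 over the members and 0.080 over all genes. Nanos3 was higher in PRDM14 by 2.27 ± 0.09 (limma adjusted p = 5.01e-05), Dppa3 by 2.18 ± 0.14 (limma adjusted p = 0.000191) and Kit by 2.17 ± 0.13 (limma adjusted p = 0.000148). Ifitm3 was higher by 1.45 ± 0.09 (limma adjusted p = 0.000194), Tfap2c by 1.34 ± 0.08 (limma adjusted p = 0.000179), Dppa2 by 1.21 ± 0.08 (limma adjusted p = 0.000242) and Dppa4 by 0.68 ± 0.09 (limma adjusted p = 0.00278). Ifitm1 was lower, with a difference of -1.52 ± 0.10 (limma adjusted p = 0.000241). These 7 and 1 calls held under all 16 alternatives run for this comparison.

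**Figure D4:**
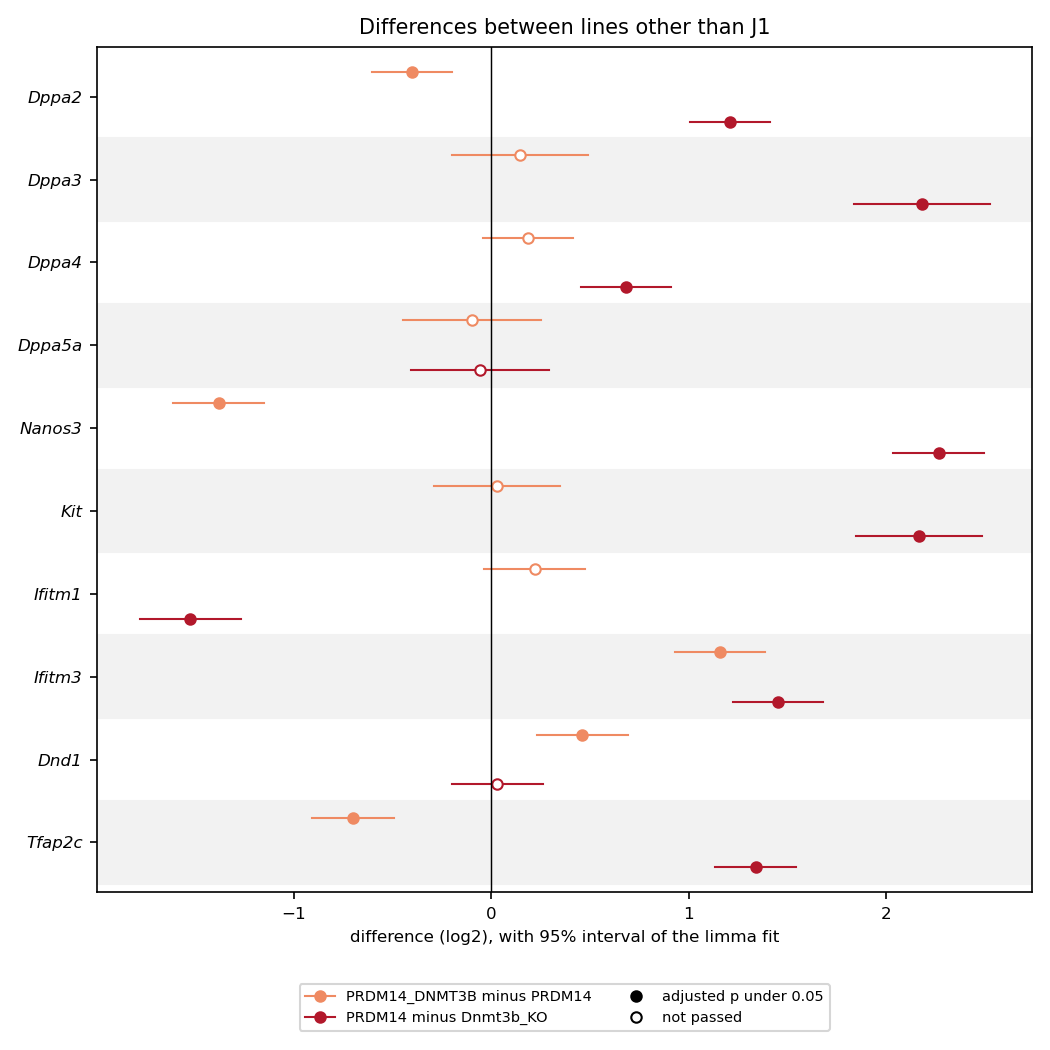
Differences of PRDM14_DNMT3B minus PRDM14 and of PRDM14 minus Dnmt3b_KO for each member, in log2 units on the x axis with the 95% interval of the limma fit. Filled points passed a limma adjusted p under 0.05. For Nanos3 the points are -1.38 and 2.27, and for Ifitm3 they are 1.16 and 1.45.

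Other genes of germ cell specification were taken from a list of 30, of which 29 were tested and Nanos2 was not. Against J1, 10 were higher and 9 lower in PRDM14 (median 0.18), beside 21.0% of all genes higher and 18.7% lower. In PRDM14_DNMT3B 11 were higher and 9 lower (median 0.14), beside 19.5% and 19.6% of all genes. In Dnmt3b_KO 10 were higher and 2 lower, beside 10.8% and 10.2% of all genes. In Dnmt1_KO 5 were higher and 8 lower, beside 13.1% and 15.0% of all genes. In TKO 6 were higher and 9 lower, beside 13.9% and 14.7%. The list thus moved in both directions in PRDM14, where 8 of the 10 members were higher. The ligands of the signal that induces germ cells parted in PRDM14. Bmp4, the inducing ligand, was higher by 2.08 ± 0.09 (limma adjusted p = 5.8e-05). Bmp8b, a second ligand, was lower, with -1.79 ± 0.12 (limma adjusted p = 0.0002). Among the receptor and Smad genes of that signal on the list, Bmpr1a (-0.68), Acvr1 (-0.53) and Smad5 (-0.51) were lower (limma adjusted p = 0.0214, 0.0115 and 0.011). Smad1 (-0.39) and Smad4 (-0.19) did not pass. Wnt3, which primes the epiblast for that signal, read -3.17 ± 0.15 (limma adjusted p = 7.26e-05), and T, which encodes Brachyury, was lower by at least 23.3-fold (limma adjusted p = 4.75e-05).

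The levels of T were -4.40 and -4.33 in PRDM14, -4.28 and -3.77 in PRDM14_DNMT3B, 1.47 and 1.68 in Dnmt3b_KO, 0.12 in Dnmt1_KO and -4.91 in TKO, against 0.12 and 0.24 in J1. Wnt3 had the same low lines, with -4.07 and -4.45 in PRDM14, -3.46 and -3.27 in PRDM14_DNMT3B and -4.64 in TKO, against -1.11 and -1.06 in J1. Prdm1, which encodes Blimp1, was higher than J1 in PRDM14 by 1.08 ± 0.19 (limma adjusted p = 0.00731) and in PRDM14_DNMT3B by 1.89 ± 0.19 (limma adjusted p = 0.000912). It was also higher in Dnmt3b_KO by 1.55 ± 0.19 (limma adjusted p = 0.00507) and in TKO by 1.00 ± 0.24 (limma adjusted p = 0.0279), and did not pass in Dnmt1_KO (0.74). Its level was 0.49 and 0.58 in PRDM14, 1.19 and 1.501 in PRDM14_DNMT3B, 0.80 and 1.22 in Dnmt3b_KO, 0.20 in Dnmt1_KO and 0.46 in TKO, against -0.69 and -0.39 in J1. Dazl, an RNA-binding protein of later germ cells, was higher by 1.80 ± 0.20 in PRDM14 (limma adjusted p = 0.00111) and by 3.44 ± 0.24 in TKO (limma adjusted p = 0.000686). It was also higher in PRDM14_DNMT3B (1.51) and Dnmt1_KO (1.60, limma adjusted p = 0.00217 and 0.00724) and did not pass in Dnmt3b_KO (0.51). The probe of Prdm14 itself was lower by a difference of -4.18 in PRDM14, as described above. The summed level of 6 later germ cell markers, Dazl among them, was 8.01 to 8.43 in PRDM14, 6.94 to 7.29 in PRDM14_DNMT3B, 6.70 to 7.03 in Dnmt3b_KO, 10.1 in Dnmt1_KO and 11.0 in TKO, against 7.03 to 7.90 in J1. Markers of 2-cell-like cells, of which 7 are on the array, summed to 54.6 to 59.5 in PRDM14 and 52.8 to 54.7 in PRDM14_DNMT3B, against 15.0 to 15.5 in J1. The part of either cell state in the levels of the members was not tested.

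**Figure D5:**
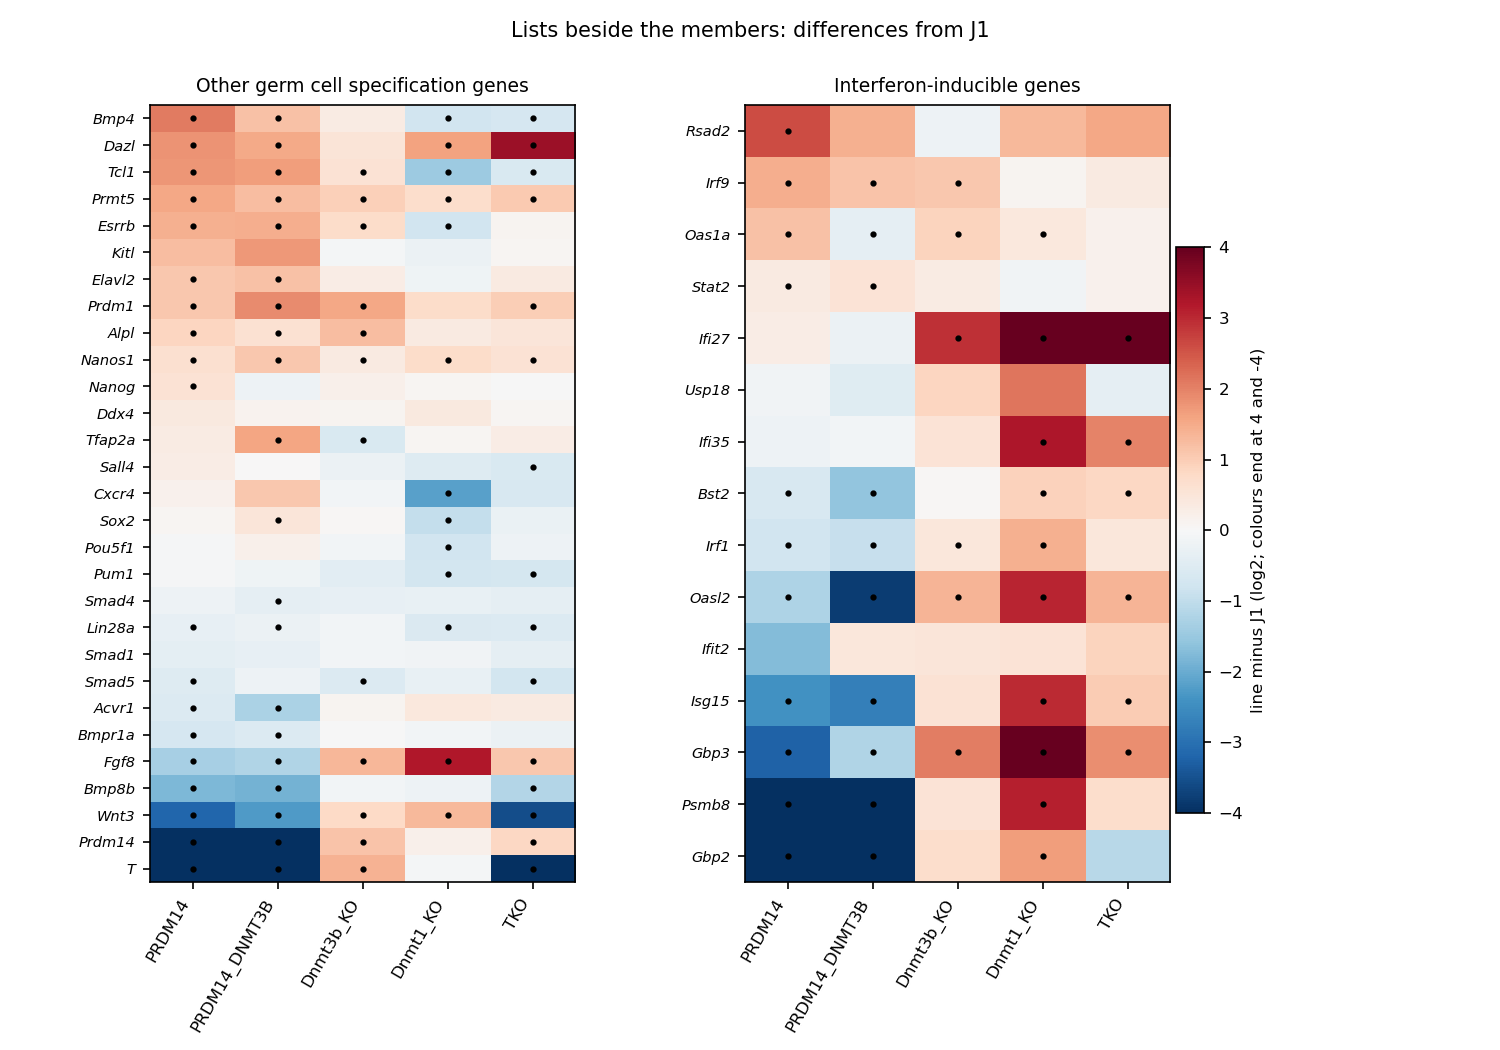
Differences from J1 (log2, colour, ending at 4 and -4) of the other germ cell specification genes (left) and of interferon-inducible genes (right), with the 5 lines as columns and the genes ordered by PRDM14. A dot marks a limma adjusted p under 0.05. Among interferon-inducible genes, 10 of 15 are higher in Dnmt1_KO and 7 are lower in PRDM14, beside 13.1% and 18.7% of all genes.

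Among the relatives of Ifitm1 and Ifitm3, Ifitm2, Ifitm5 and Ifitm7 were tested, and Ifitm6 and Ifitm10 were not. Ifitm2 was at 5.02 and 4.76 in PRDM14, 4.82 and 4.78 in PRDM14_DNMT3B, 4.33 and 4.32 in Dnmt3b_KO, 4.03 in Dnmt1_KO and 4.59 in TKO, against 4.27 and 4.26 in J1. It was higher than J1 in PRDM14 (0.62 ± 0.10, limma adjusted p = 0.00572) and in PRDM14_DNMT3B (0.53 ± 0.10, limma adjusted p = 0.0101) and passed in no knockout. Ifitm5 (0.52 in PRDM14) and Ifitm7 (0.47 in PRDM14) passed in none of the 7 comparisons. Of the Ifitm genes tested, Ifitm1 was thus the one that was lower in PRDM14.

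Interferon-inducible genes, the class to which Ifitm1 and Ifitm3 belong, moved in both directions in the PRDM14-labelled lines. In the knockouts, all that passed were higher. Of a list of 20, 15 were tested. In PRDM14 against J1, 4 were higher and 7 lower (median -0.63), beside 21.0% and 18.7% of all genes. In PRDM14_DNMT3B 2 were higher and 8 lower (median -0.48), beside 19.5% and 19.6% of all genes. Gbp2, a guanylate-binding protein, was at least 83.6-fold lower in PRDM14 (limma adjusted p = 6.57e-05), Psmb8, an immunoproteasome subunit, at least 22.1-fold lower (limma adjusted p = 0.000472), and Gbp3 differed by -3.22 ± 0.24 (limma adjusted p = 0.000276). In the knockouts no tested gene of the list was lower, beside 10.2% of all genes in Dnmt3b_KO, 15.0% in Dnmt1_KO and 14.7% in TKO. Of the list 6 were higher in Dnmt3b_KO, 10 in Dnmt1_KO (median 1.69) and 6 in TKO. The shares of all genes that were higher were 10.8%, 13.1% and 13.9%. Ifitm3 was lower in Dnmt3b_KO (-0.96), where the list had a median of 0.56, and Ifitm1 did not pass in Dnmt1_KO, where the list had its highest median. The part of interferon in the levels of Ifitm1 and Ifitm3 was not tested.

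Across the 10 arrays some members had similar profiles, given here as descriptions, since the arrays share lines and slides. Pearson's r was 0.93 between Dppa2 and Nanos3, 0.89 between Dppa2 and Dppa4, 0.89 between Nanos3 and Kit, and 0.89 between Dppa3 and Ifitm3. Ifitm1 ran opposite to Kit (r = -0.96) and to Tfap2c (r = -0.87). For Dppa5a, r with the other members ran from -0.54 (Ifitm3) to 0.21 (Ifitm1).

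Among 3986 other genes with an SD of at least 0.5 that were above background on all arrays, those most like Dppa2 over the 10 arrays were a transcript known by accession only (r = 0.996), Usp38 (0.992) and Mtmr7 (0.990). Those most like Dppa4, among 3987 genes, were Grtp1 (0.974), Nek1 (0.972) and Zfp42 (0.971), the last a marker of embryonic stem cells also known as Rex1. All 3 named for Dppa2 and all 3 named for Dppa4 lie on chromosome 8, while Dppa2 and Dppa4 lie on chromosome 16. Of the 23811 genes tested, 1292 lie on chromosome 8. As a whole they were shifted up against J1 by 0.44 in PRDM14, 0.36 in PRDM14_DNMT3B and 0.23 in TKO. The part of that shift in these profiles was not tested. Gm20767 (0.969), E030010N08Rik (0.965) and LOC100505237 (0.960) were most like Dppa3, with their places unmapped, on chromosome 1 and on chromosome 2. The highest r with Dppa5a was 0.66, and the 3 features most like it carry no gene symbol in the files. These profiles rest on 6 lines, 2 of them with 1 array.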

How the data were processed

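The members and gene lists were chosen with earlier results of these data known. Single-colour Agilent arrays (60-base probes, coordinates on mm9) were read by the authors with Agilent Feature Extraction 10.7.3.1, per the file headers, which gives 1 fluorescence intensity per spot, background-subtracted and detrended within the array and not scaled between arrays. The value table deposited by the authors holds log2 values (median 4.243 in every column, r of at least 0.999 with log2 intensity). Its exact scaling is unknown, and limma is named in the submitters' processing notes with no version. On every array the value table differed from quantile-normalized log2 intensity by less than 0.25. It served as an alternative that is not separate from quantile normalization.

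From the intensities, outlier and control spots were left out (59305 spots before outliers), spots of a probe were averaged, and log2 values minus the 75th percentile of the array were taken. Of 55681 probes, 33114 were kept because all arrays of some group showed them well above background, and the brightest probe on average represented its gene. Symbols were updated by accession through a RefSeq table of GRCm38.p6 (2891 changed). An mm9 annotation was not used here, and the place of probes in exons or UTRs is not stated. One limma 3.58.1 fit (R 4.3.3) over all 10 arrays and 6 groups without covariates gave moderated tests on 4 residual degrees of freedom, with Benjamini-Hochberg adjustment over 23811 genes at 0.05. The steps were tested on simulated data for PRDM14 against J1, with 200 changed genes. Of changes of 1 log2 unit 54% were recovered, and of 2 log2 units 85%. In the data 39.6% of the 23811 genes passed in that comparison, a far larger share than was changed in the simulation. The adjusted threshold depends on that share, so these rates do not carry over to the data. A gene that did not pass may still differ. Where a group was not above background, the fold is a lower bound against the lowest signals measured there. Named genes were all members, and from the other germ cell genes the 6 past the threshold that differed most in PRDM14 against J1, with Prdm14 and Prdm1. Every Ifitm relative tested, the 3 such interferon-inducible genes, and, where they have a gene symbol, the 3 genes most like each Dppa gene were named too. Kitl, the receptor and Smad genes, and the genes of the closing observations were added after their values were seen.

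Slide 1 held replicate 1 of J1, PRDM14_DNMT3B and Dnmt3b_KO with Dnmt1_KO and TKO, slide 2 held replicate 2 of J1, PRDM14_DNMT3B and Dnmt3b_KO, and slides 3 and 4 held 1 PRDM14 array each. The scanner pass of Dnmt1_KO and TKO differed from that of J1 on slide 1. The labels share replicate numbers without saying what they mean. Precision is limited by how few arrays there are. Alternatives were other scalings and background corrections, other filters, the mean of probes, slide or replicate blocks, and each replicate left out.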

Additional observations from a re-analysis of the deposited data

How the results depend on the processing

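Over 1160 recomputed differences of members, 1065 kept direction and call, 49 lost the call, 17 gained one and 29 changed sign, all of the last on values that did not pass either way. Quantile normalization, normexp and the authors' value table turned Dppa5a in PRDM14 against J1 (0.045, 0.038 and 0.041) and Dnd1 in PRDM14 against Dnmt3b_KO (-0.027, -0.11 and -0.028), and quantile normalization and the value table turned Ifitm1 in Dnmt1_KO (0.16 and 0.16) and Dppa5a in TKO (-0.022 and -0.019). Averaging probes turned Dppa2 in Dnmt3b_KO (-0.070). With a replicate block, a random slide block and a fixed slide block, Nanos3 in Dnmt1_KO became -0.026, -0.019 and -0.033 and Dppa5a in TKO -0.029, -0.045 and -0.075. With single replicates left out, signs changed in Dppa2 in Dnmt3b_KO against J1 (-0.0055 to 0.10), Dppa5a in Dnmt3b_KO against J1 (-0.091 to 0.20), Dppa5a in PRDM14 against Dnmt3b_KO (-0.16 to 0.045), Dppa5a in PRDM14 against J1 (-0.15 to 0.14), Dppa5a in PRDM14_DNMT3B against J1 (-0.25 to 0.042), Dppa5a in TKO against J1 (-0.11 to 0.18), Ifitm1 in Dnmt3b_KO against J1 (-0.020 to 0.16) and Kit in PRDM14_DNMT3B against PRDM14 (-0.10 to 0.16). The counts of genes passing were 4993 in Dnmt3b_KO, 6706 in Dnmt1_KO and 4949 in PRDM14_DNMT3B against PRDM14. They became 2995, 4081 and 2993 without the filter on dim probes, which tests more genes, and 8455 and 10094 for the 2 knockouts with a random slide block. The cause of that increase was not tested. Leaving out a replicate gave 2452 to 4132 genes in Dnmt3b_KO, 4469 to 5846 in Dnmt1_KO, 1909 to 4701 in PRDM14_DNMT3B against PRDM14 and, against 8892, 5742 to 8808 in PRDM14 against Dnmt3b_KO. Same-numbered arrays of the 4 replicated lines deviated together with r of 0.099 to 0.23. Among J1, PRDM14_DNMT3B and Dnmt3b_KO, where the same number is also the same slide, r was 0.21 to 0.23. There the number and the slide cannot be told apart, and the replicate block is in part a slide block. Pairs with PRDM14, which lay on slides of its own, gave 0.099 to 0.15. The replicate block gave 11422 genes in PRDM14, 10995 in PRDM14_DNMT3B, 7153 in Dnmt3b_KO, 8877 in Dnmt1_KO and 8264 in TKO against J1, 7019 in PRDM14_DNMT3B against PRDM14 and 10817 in PRDM14 against Dnmt3b_KO. With it Kit passed in the 3 knockouts and Dppa3 in TKO, and no other member's call changed. PRDM14 shares no slide with another line, so the fixed slide block could not be fitted there.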

Other observations

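Among the other germ cell specification genes, Prmt5 and Nanos1 resembled Dnd1 in being higher than J1 in each of the 5 other lines. They were singled out after their values were seen. Prmt5, an arginine methyltransferase needed in germ cells, read 5.11 and 4.93 in PRDM14, 4.76 and 4.65 in PRDM14_DNMT3B, 4.50 and 4.40 in Dnmt3b_KO, 4.20 in Dnmt1_KO and 4.54 in TKO, against 3.55 and 3.42 in J1. Its differences from J1 ran from 0.71 in Dnmt1_KO to 1.54 in PRDM14 (limma adjusted p from 0.000223 to 0.0129). Nanos1, a relative of Nanos3, had differences from 0.37 in Dnmt3b_KO to 1.07 in PRDM14_DNMT3B (limma adjusted p from 0.000265 to 0.0232). All of these comparisons share the same 2 J1 arrays.

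Fgf8, a fibroblast growth factor of the gastrulating embryo, split the lines differently. It was at -2.30 and -2.41 in PRDM14, -2.36 and -2.08 in PRDM14_DNMT3B, 0.27 and 0.30 in Dnmt3b_KO, 2.19 in Dnmt1_KO and 0.062 in TKO, against -0.97 and -1.08 in J1. Ifi27, the interferon-inducible gene with the largest difference in Dnmt1_KO among those tested of that list, was at least 55.0-fold higher there than in J1 (limma adjusted p = 0.000643), on a single Dnmt1_KO array.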
